A study of Mus musculus with 14 samples.

Results

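The genes described here encode ETS transcription factors (TFs) other than PU.1, the product of Spi1. They were named by symbol as Fli1, Erg, Ets1, Ets2, Etv6, Elf1, Elk1, Elk3 and Elk4. The locus of each gene was its RefSeq span in GRCm38 (mm10) with 20 kb added on each side, and a peak belonged to a locus when it overlapped it by at least 1 bp. These 9 loci, out of 21774 protein-coding loci, held 315 of the 158488 deposited peaks. Merging peaks that overlapped gave 221 regions at the 9 loci, out of 117293 regions in all.

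The study followed the differentiation of mouse embryonic stem cells into blood, and chromatin immunoprecipitation with sequencing (ChIP-seq) was used to find where TFs bind DNA. All cells came from 1 reporter line with GFP in the Brachyury gene, and the populations were sorted by GFP or surface markers. They were mesoderm (MES, Brachyury-GFP positive and Flk1 negative), hemangioblast (HB, positive for Brachyury-GFP and Flk1), hemogenic endothelium (HE, Tie2 and Kit positive, CD41 negative), hematopoietic progenitors (HP, CD41 positive) and macrophages (MAC, CD11b positive). The 14 peak lists covered C/EBPβ at all 5 stages, ELK4 in MES, GATA2 in HB and HP, GATA1 and GFI1B in HP, and RUNX1 and PU.1 in HP and MAC. A group was 1 factor at 1 stage and held 1 list, so there were no replicates, no spread between replicates and no test. The line was the same for every group, but the later stages were grown with added cytokines, so that stage and culture cannot be told apart. The lists hold no RNA level with which the identity of a population could be checked.

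ETS factors share a DNA-binding domain that recognises a GGAA core, and most blood cells express several of them at once. FLI1 and ERG are needed for blood stem cells and endothelium, ETS1 acts in lymphoid and endothelial cells, ETV6 is a repressor required by blood stem cells, and ELF1 acts in blood and endothelium. ELK1, ELK3 and ELK4 are the ternary complex factors, which bind DNA together with serum response factor and are switched on by MAP kinase signalling. PU.1 is itself an ETS factor and drives macrophage formation, and C/EBPβ is its partner at many macrophage enhancers.

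The sequences behind the sites that stood out are given first, on the plus strand of GRCm38, with words of known motifs in capitals. They were chosen after the values were seen. The planned choice, regions shared by at least 4 lists, selected none, because 0 of the 221 regions was in more than 3 lists. Words were searched on both strands. They were GAGGAAGT for PU.1, CCGGAAGT for ELK4, AATCACAGC and AATCACTGC for GFI1B, TTGCACAA, TTGCATAA, TTGCGCAA and TTGCGTAA for C/EBP, and, under its name alone, the CArG box of serum response factor. For GATA factors the word AGATAAG was searched. The variant of this GATA word that ends differently, AGATAAC, was counted with it. For RUNX factors the word was TGTGGTT. The ETS core GGAAGT was also marked, which lies within the PU.1 and ELK4 words. A match describes the letters only and is not a binding site.

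The first sequence, chr9:32472436-32472585 in an intron of Fli1, is shown because it lay in peaks of MES C/EBPβ, HP PU.1 and MAC PU.1. Capitals mark a PU.1 word, a RUNX word and ETS cores.
Fli1 MES C/EBPβ site: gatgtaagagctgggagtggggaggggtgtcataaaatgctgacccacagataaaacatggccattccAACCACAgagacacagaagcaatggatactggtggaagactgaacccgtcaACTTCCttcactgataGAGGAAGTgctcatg
The second, chr9:32508875-32509024 in an intron of Fli1, lay in peaks of HP PU.1, MAC PU.1 and MAC C/EBPβ and holds a PU.1 word. HP PU.1 peaks were considered for display only if they held this word and lay at least 2 kb from the member's start sites. At these loci 8 of 26 HP PU.1 peaks held the word.
Fli1 HP PU.1 site: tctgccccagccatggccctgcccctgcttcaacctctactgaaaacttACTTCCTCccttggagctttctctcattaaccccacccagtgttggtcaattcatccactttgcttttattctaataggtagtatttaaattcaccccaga
The third, chr16:95439258-95439407 in an intron of Erg, was the one region at these loci shared by 3 factors at 3 stages, namely HB GATA2, HP GFI1B and MAC PU.1. Only an ETS core is marked.
Erg HB GATA2 site: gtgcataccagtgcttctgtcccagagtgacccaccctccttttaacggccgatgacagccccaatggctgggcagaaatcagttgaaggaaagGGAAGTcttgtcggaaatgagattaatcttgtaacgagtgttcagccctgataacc
The fourth, chr14:79500737-79500886 in an intron of Elf1, was an HP GATA2 site and holds a GATA word.
Elf1 HP GATA2 site: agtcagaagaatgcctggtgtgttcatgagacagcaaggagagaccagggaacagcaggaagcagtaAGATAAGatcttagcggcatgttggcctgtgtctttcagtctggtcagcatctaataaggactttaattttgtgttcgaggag
The fifth, chr10:93268475-93268624 in an intron of Elk3, was an HP C/EBPβ site shared with both long MAC lists and holds a C/EBP word.
Elk3 HP C/EBPβ site: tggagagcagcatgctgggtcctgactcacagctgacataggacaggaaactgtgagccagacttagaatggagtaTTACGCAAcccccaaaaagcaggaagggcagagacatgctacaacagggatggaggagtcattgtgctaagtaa
The HP C/EBPβ site at the start of Elf1, chr14:79481607-79481756, is shown with the annotated transfer RNA (tRNA) gene n-TEttc4 in capitals.
Elf1 HP C/EBPβ site: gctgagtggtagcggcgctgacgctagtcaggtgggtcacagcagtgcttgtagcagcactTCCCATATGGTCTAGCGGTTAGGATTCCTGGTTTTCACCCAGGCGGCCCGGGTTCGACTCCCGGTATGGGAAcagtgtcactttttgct
The last, chr1:132007370-132007669, is 1 of 3 RefSeq promoter entries of Elk4 (GRCm38). All 3 overlapped a MAC PU.1 peak, and this one was picked because it holds both a PU.1 and an ELK4 word, while the others hold only an ETS core.
Elk4 promoter: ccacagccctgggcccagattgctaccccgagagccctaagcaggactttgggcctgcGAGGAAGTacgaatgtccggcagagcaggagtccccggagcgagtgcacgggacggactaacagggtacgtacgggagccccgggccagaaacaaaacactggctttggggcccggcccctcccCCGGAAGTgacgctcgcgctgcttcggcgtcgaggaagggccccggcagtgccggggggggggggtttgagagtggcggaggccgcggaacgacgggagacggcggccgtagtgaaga

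A list with at least 1 peak at a locus was found in 36 of the 126 combinations of list and locus. Of these, 1 of 18 was in MES, 1 of 18 in HB, 0 of 9 in HE, 16 of 54 in HP and 18 of 27 in MAC. Over all coding loci the shares were likewise highest for the MAC C/EBPβ and MAC PU.1 lists, at 73.8% and 79.1%, and did not exceed 6.47% for any list before HP. The lists differed greatly in length, and the MAC PU.1 list held 82866 peaks and the MAC C/EBPβ list 55471, against 10943 for HP PU.1 and between 72 and 2716 for the other lists. The threshold of each list was chosen separately by the authors, so counts are compared here with the share of all protein-coding loci that held a peak of the same list and not between lists.

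**Figure D1:**
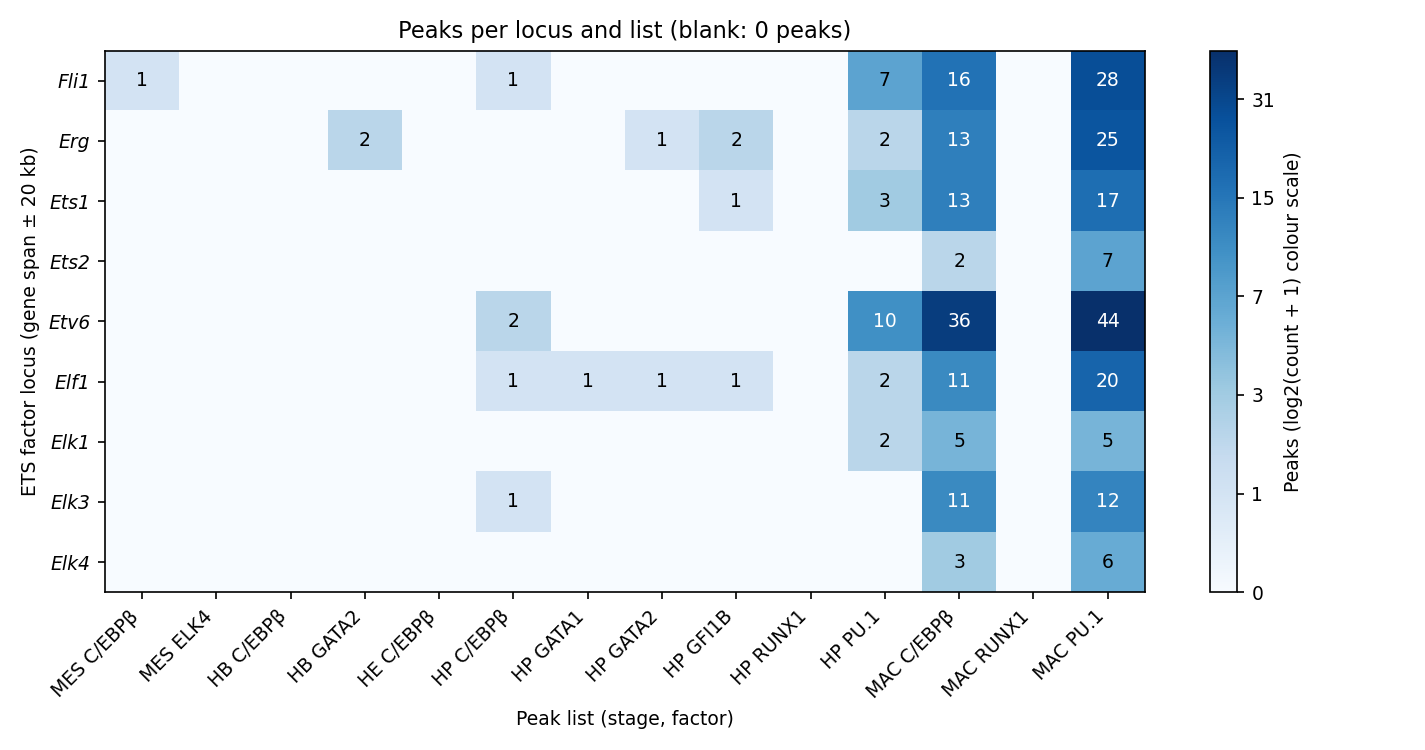
Number of peaks of each of the 14 lists (columns, stage and factor) at each ETS factor locus (rows, gene span with 20 kb on each side), with colour on a log2(count + 1) scale and blank cells for 0 peaks. The MAC C/EBPβ and MAC PU.1 columns are filled at all 9 loci, the HP PU.1 column at 6, and MES ELK4, HB C/EBPβ, HE C/EBPβ, HP RUNX1 and MAC RUNX1 have no peak at any of them.

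Before HP, only 3 peaks of the lists used here lay at these loci. These lists covered no factor before HP other than C/EBPβ, ELK4 and GATA2. The paper also mapped other factors at these stages, among them TAL1 and LMO2 in HB and HE and FLI1 in HE. Their peaks were not used here, and the paper reports Fli1 among the genes that TAL1 and LMO2 co-regulate. The low count is therefore not a sign that these loci were unbound before HP. MES C/EBPβ bound 1 of the 9 loci, Fli1, against 6.47% of all coding loci. HB GATA2 bound 1 of 9, Erg, against 0.363% of all coding loci. MES ELK4, the list of a factor encoded by one of these genes, had a peak at 0 of 9 loci against 4.66% of all coding loci, HB C/EBPβ at 0 of 9 against 4.24%, and HE C/EBPβ at 0 of 9 against 0.684%. At these background shares under 1 locus of 9 would hold each list, so the counts of 0 are not a result about these genes.

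In HP, PU.1 bound 6 of the 9 loci (Fli1, Erg, Ets1, Etv6, Elf1 and Elk1) against 38.2% of all coding loci. HP C/EBPβ bound 4 of 9 (Fli1, Etv6, Elf1 and Elk3) against 14.8%. HP GFI1B, a zinc finger repressor, bound 3 of 9 (Erg, Ets1 and Elf1) against 11.8%. The paper tested a site of Erg by quantitative PCR (qPCR) to qualify this HP GFI1B sample for sequencing. The Erg peaks of this list are therefore not independent of that choice. HP GATA2 bound 2 of 9 (Erg and Elf1) against 3.36%, and HP GATA1 bound Elf1 against 1.75%. HP RUNX1 bound 0 of 9 against 7.79%. In MAC, C/EBPβ and PU.1 each bound 9 of 9 loci, against 73.8% and 79.1% of all coding loci, and MAC RUNX1, with 72 peaks in all, bound 0 of 9 against 0.478%.

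Long genes have long windows, and the windows ran from 57214 bp at Elk1 to 274459 bp at Etv6. With windows of equal size, 20 kb on each side of the 5′ end of the gene, HP C/EBPβ was found at 3 of 9 loci against 10.3% of coding loci, HP PU.1 at 4 against 27.4%, HP GATA2 at 2 against 2.23%, HP GATA1 at 1 against 1.18% and HP GFI1B at 1 against 8.36%. The MAC lists still had peaks at 9 of 9, against 66% for C/EBPβ and 73.8% for PU.1. MES C/EBPβ and HB GATA2 no longer bound any of the 9, since their sites at Fli1 and Erg lie far from the 5′ end of the gene span. Even so, 1 of the HB GATA2 sites at Erg was 322 bp upstream of a later curated start site.

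**Figure D2:**
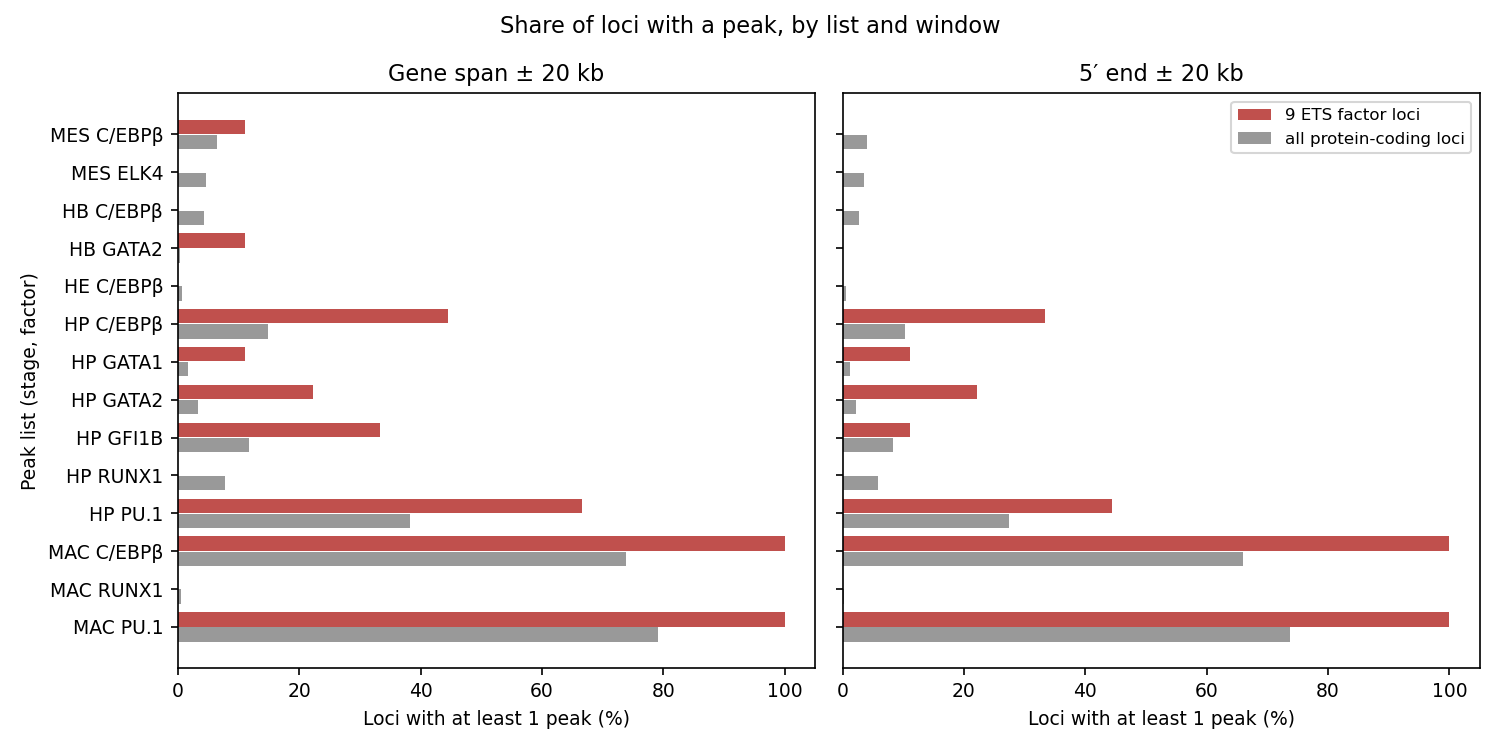
Share of loci with at least 1 peak (x-axis, percent) for each peak list (y-axis), for the 9 ETS factor loci (red) and all 21774 protein-coding loci (grey), with windows of the gene span and 20 kb on each side (left) and of 20 kb on each side of the 5′ end (right). The MAC C/EBPβ and MAC PU.1 bars reach 9 of 9 loci in both panels, and the MES C/EBPβ and HB GATA2 bars of the left panel have no counterpart on the right.

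Fli1 (chr9:32422204-32543432, minus strand) carried 53 peaks from 5 lists. The counts were 1 for MES C/EBPβ, 1 for HP C/EBPβ, 7 for HP PU.1, 16 for MAC C/EBPβ and 28 for MAC PU.1, and 0 for each of the other 9 lists. Of the 9 loci it had the highest density of both PU.1 lists, with 4.34 HP PU.1 peaks per 100 kb of window against a median of 0 over coding loci, and 17.4 MAC PU.1 peaks per 100 kb against a median of 5.24. Of all coding loci, 3.89% had an HP PU.1 density at least as high and 6.16% a MAC PU.1 density at least as high. HP PU.1 sat on the transcription start site (TSS), 2 bp from its centre, and within the gene at 10.3, 32.5, 41.2, 66.3 and 68.9 kb downstream, with a further site 124 kb downstream, beyond the 3′ end of the gene. Of these 7 peaks, 5 held the PU.1 word. Peaks of MAC PU.1 were most crowded between 32.5 and 41.8 kb from the TSS, with 6 centres within 10 kb, and 5 centres of MAC C/EBPβ lay between 31.4 and 39.9 kb, a stretch that overlaps it. The TSS of Kcnj1 was nearer than that of Fli1 for 5 of the 53 peaks.

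In the lists used here, Fli1 was the only one of the 9 loci with a site before HB. The centre of the MES C/EBPβ peak lay 69 kb downstream of the TSS, in an intron, and the peak overlapped HP PU.1 and MAC PU.1 peaks but no C/EBPβ peak of another stage. It held a PU.1 and a RUNX word and no C/EBP word, whereas 43.2% of the 1177 MES C/EBPβ peaks held a C/EBP word, 2.29% a PU.1 word and 8.58% a RUNX word. The HP C/EBPβ peak was 2.01 kb downstream of the TSS and was also in both long MAC lists, with none of the words searched.

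Erg (chr16:95359169-95586600, minus strand) carried 45 peaks from 6 lists, with 2 for HB GATA2, 1 for HP GATA2, 2 for HP GFI1B, 2 for HP PU.1, 13 for MAC C/EBPβ and 25 for MAC PU.1. In the lists used here, Erg was the only one of the 9 loci with an HB peak. Of the coding loci, 6 of 21774 held 2 or more HB GATA2 peaks. The Erg window, at 267432 bp, was among the longest of the 9, and this share was not adjusted for window length. The paper gives no qPCR enrichment for the HB GATA2 sample, nor for MES C/EBPβ, HB C/EBPβ and MAC RUNX1, and sequenced them regardless. The HB GATA2 list was the second shortest, with 97 peaks. Erg has 3 curated start sites, at positions 95586593, 95530365 and 95459348. One HB GATA2 peak was centred 322 bp upstream of the last of these, and the other 20.1 kb downstream of it, which is 91.1 kb and 147 kb from the other start sites. The second peak overlapped an HP GFI1B peak and a MAC PU.1 peak, but no HP GATA2 peak.

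Neither HB GATA2 peak at Erg held a GATA word, and of all 97 peaks of that list 6.19% did, against 9.79% of flanks of the same width 2 kb away. The RefSeq promoter entry at the last start site holds a GATA word, which 4.8% of the 32851 promoter entries do, but it lies 19 bp outside the HB GATA2 peak. In HP the GATA2 peak of Erg overlapped neither HB peak. The HP GFI1B peaks were 19.9 and 17.9 kb downstream of the last start site, within a stretch in which 5 MAC PU.1 peaks lay between 17.1 and 27.0 kb. HP PU.1 bound 15.3 kb upstream and 78.2 kb downstream of the last start site. Of the 45 peaks, 3 were nearest to the TSS of Kcnj15.

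Ets1 (chr9:32636241-32757820, plus strand) had 1 peak for HP GFI1B, 3 for HP PU.1, 13 for MAC C/EBPβ and 17 for MAC PU.1. The HP GFI1B peak was 21.9 kb upstream of the nearest of the 2 curated start sites, within the gene, and held a GATA word but no GFI1B word. A GATA word was found in 22% of the 2018 HP GFI1B peaks and a GFI1B word in 8.87%. The HP PU.1 peaks were 23.4 and 27.9 kb upstream of the same start site and 17.3 kb downstream of the first one, none with the PU.1 word, and the one at 27.9 kb was shared with both long MAC lists. Ets2 (chr16:95702407-95721049, plus strand) had no peak in the lists outside MAC. In MAC it held 2 C/EBPβ and 7 PU.1 peaks, both C/EBPβ peaks on a PU.1 peak.

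Etv6 (chr6:134035700-134270158, plus strand) held the most peaks, 92, in the longest window. They were 2 for HP C/EBPβ, 10 for HP PU.1, 36 for MAC C/EBPβ and 44 for MAC PU.1. Its MAC C/EBPβ density, 13.1 per 100 kb against a coding median of 3.16, was the highest of the 9 loci, and 2.76% of coding loci were at least as dense. The 10 HP PU.1 peaks were spread from 16.4 to 227 kb downstream of the TSS, 2 of them with the PU.1 word, and 5 of them also lay on a MAC C/EBPβ peak. Both HP C/EBPβ sites were kept in MAC C/EBPβ, and the one 85.1 kb downstream, which held no C/EBP word, was also bound by MAC PU.1. Of the 92 peaks, 85 were intronic, and 16 lay nearer to the TSS of Bcl2l14 than to that of Etv6. The window also overlaps the coding gene Gm46977.

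Elf1 (chr14:79481174-79582491, plus strand) held the most lists, 7, with 37 peaks. HP C/EBPβ, HP GATA1, HP GATA2 and HP GFI1B had 1 peak each, HP PU.1 had 2, MAC C/EBPβ 11 and MAC PU.1 20. In HP, GFI1B lay 1.03 kb upstream of the first start site, with C/EBPβ 487 bp and GATA1 5.61 kb downstream of it. GATA2 lay 14.9 kb upstream of the second start site, with PU.1 6.3 and 34 kb downstream of it. Of the 6 HP peaks, only the GATA2 peak held the word of its own factor, and a GATA word was found in 46.6% of the whole HP GATA2 list. The divergent gene Wbp4 starts beside Elf1, and the C/EBPβ and GATA1 peaks were nearer to the Wbp4 TSS, at 413 and 5536 bp. Of the 37 peaks, 7 were nearest to Wbp4 and 7 to Sugt1.

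The HP C/EBPβ peak at the start of Elf1 covered the tRNA gene n-TEttc4 (chr14:79481668-79481739), as did a MAC C/EBPβ and a MAC PU.1 peak, and it held no C/EBP word. Of the HP C/EBPβ list, 7.03% of peaks lay within 500 bp of 1 of 403 annotated tRNA genes, against 0.173% of the MAC C/EBPβ list and 0.115% of the MAC PU.1 list. Among the earlier C/EBPβ lists the share was 0.935% in MES, 9.65% in HB and 81.1% in HE, so that most of the 132 HE C/EBPβ peaks were within that distance of one. Genes for tRNAs have near-identical copies, so reads here may be uncertain in their placement, and the part of this in the peak was not tested. No other peak of the 315 was within that distance of a tRNA gene.

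Over all coding genes, the set of lists at Elf1 was matched in all 14 lists by 2 genes, Macir and Hhex, and 77 genes differed from it in 1 list. Hhex, which encodes a homeobox factor of blood and endothelium, held 1 peak each of HP C/EBPβ, HP GATA1, HP GATA2 and HP PU.1, 2 of HP GFI1B, 3 of MAC C/EBPβ and 8 of MAC PU.1. Macir held 1 peak of each of the same 5 HP lists, 5 of MAC C/EBPβ and 10 of MAC PU.1. A site of Hhex was a qPCR target of the paper for HP C/EBPβ, HP GATA2, HP PU.1 and both long MAC lists. The match of Hhex to Elf1 is therefore not independent of that choice.

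Of the 3 ternary complex factor genes, HP PU.1 bound 1 (38.2% of all coding loci) and HP C/EBPβ 1 (14.8%). Elk1 (chrX:20933395-20950608, minus strand) had 2 HP PU.1, 5 MAC C/EBPβ and 5 MAC PU.1 peaks. Only 1 of these 12, a MAC C/EBPβ peak centred 49 bp from its TSS, was nearest to Elk1, while 8 were nearest to Cfp, which encodes the complement regulator properdin, 2 to Uxt and 1 to Syn1. Both HP PU.1 peaks were at Cfp, with centres 29 and 595 bp from its TSS. Elk3 (chr10:93247415-93311159, minus strand) had 1 HP C/EBPβ, 11 MAC C/EBPβ and 12 MAC PU.1 peaks. The HP C/EBPβ peak was 42.6 kb downstream of the TSS, held a C/EBP word and was shared with both long MAC lists. Of its 24 peaks, 2 were nearest to the TSS of Cdk17.

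Elk4 (chr1:132007577-132026448, plus strand) had 3 MAC C/EBPβ and 6 MAC PU.1 peaks and none in the lists of other stages, MES ELK4 included. Of the MAC PU.1 peaks, 4 were packed between 159 bp upstream and 2.72 kb downstream of its start sites, and 1 was nearest to the TSS of Mfsd4a. In the promoter entry printed above, a MAC PU.1 peak covered both the PU.1 word and the ELK4 word. Over all 32851 promoter entries, 3.2% held a PU.1 word and 3.89% an ELK4 word. Fli1 and Ets1 have no entry in the promoter table, and the other 7 genes do.

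**Figure D3:**
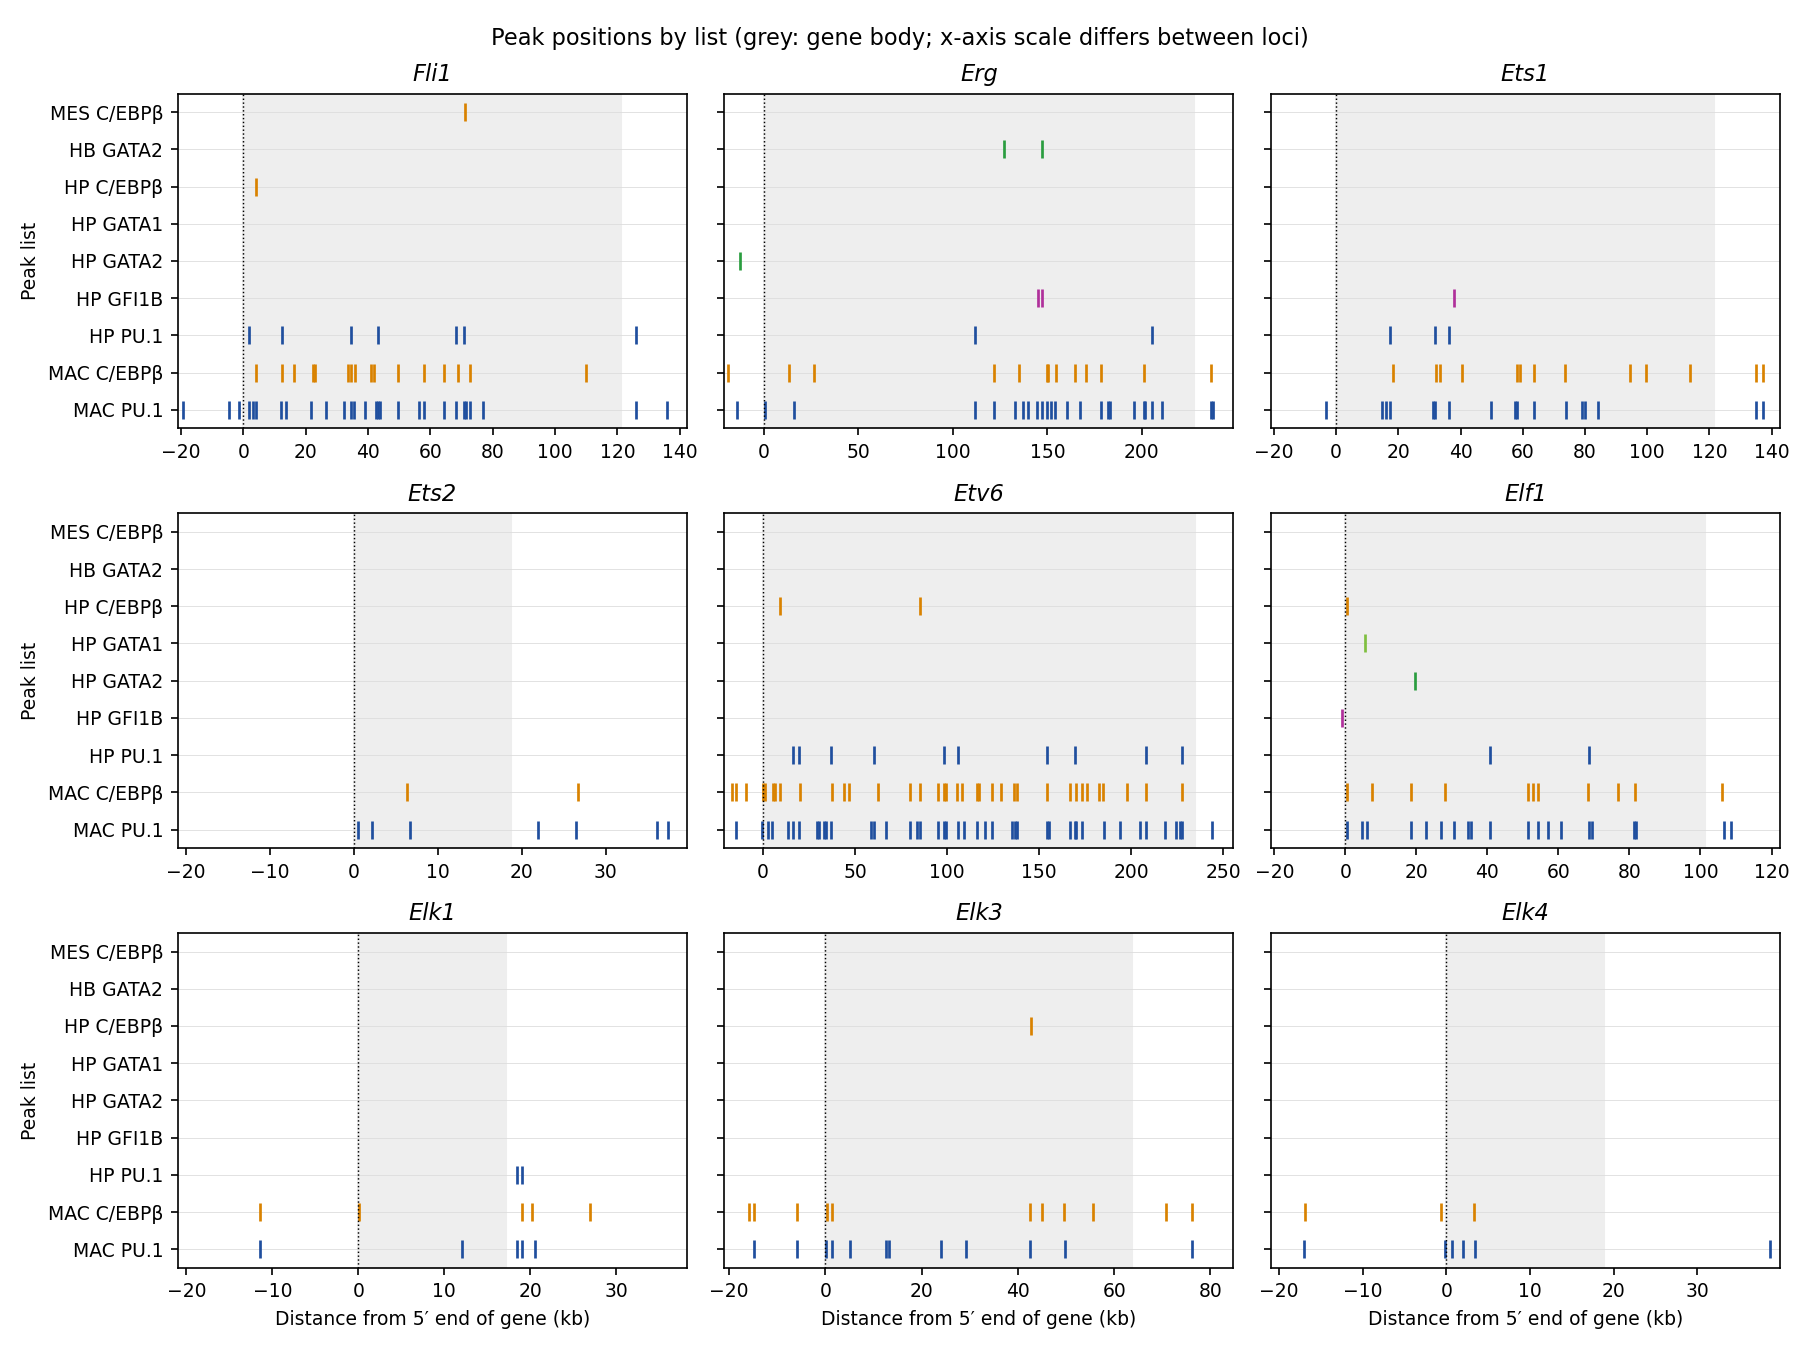
Peak positions at each of the 9 loci by list (y-axis), as the distance of the peak centre from the 5′ end of the RefSeq gene span in the direction of transcription (x-axis, kb, with a separate scale for each gene). Each tick is 1 peak coloured by factor, the dotted line is the 5′ end and grey is the gene body. At Erg the HB GATA2 and HP GFI1B ticks meet about 147 kb into the gene, and at Elk1 the HP PU.1 ticks lie beyond its 3′ end.

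Most PU.1 sites of HP were found again in MAC. Of the 26 HP PU.1 peaks at these loci, 26 overlapped a MAC PU.1 peak (lower bound of the exact Clopper-Pearson interval 86.8%, for counting error alone), and so did 97% of all HP PU.1 peaks. With at least 200 bp of overlap 25 of the 26 did (96.2%). All 5 HP C/EBPβ peaks (lower bound 47.8%) overlapped a MAC C/EBPβ peak, against 91.4% of the whole HP C/EBPβ list. Most of what MAC held was not in HP. Of the 164 MAC PU.1 peaks, 15.9% (10.6 to 22.4%) overlapped an HP PU.1 peak, against 12.8% of the whole MAC PU.1 list, and of the 110 MAC C/EBPβ peaks 4.55% (1.49 to 10.3%) overlapped an HP C/EBPβ peak, against 4.48%. In each of these 4 cases the share of the whole list lay within the interval at the ETS loci.

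MAC C/EBPβ and MAC PU.1 shared many sites. At the ETS loci 59 of 110 C/EBPβ peaks overlapped PU.1 (53.6%, interval 43.9 to 63.2%), against 42.5% over the whole C/EBPβ list. The share was 46.2% at Erg and at Ets1, with 6 of 13 peaks each, 50.0% at Fli1 and at Etv6, and 63.6% at Elf1 and at Elk3, with 7 of 11 each. At the loci with the fewest C/EBPβ peaks it was 3 of 5 at Elk1, 2 of 3 at Elk4 and 2 of 2 at Ets2. With at least 200 bp of overlap the share at these loci was 42.7% (33.3 to 52.5%), against 35.6% of the list, which then lay within the interval.

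The 16 regions shared by 3 lists fell at Etv6 (6), Fli1 (4), Elf1 (2), and Erg, Ets1, Elk1 and Elk3 (1 each). In 10 of them HP PU.1 was joined by both long MAC lists, and in 4 HP C/EBPβ was. The remaining 2 were the MES C/EBPβ region of Fli1 and the HB GATA2 region of Erg. Of the 221 regions at these loci, a further 61 were in 2 lists and 144 in 1. Over all 117293 regions, 5101 were in 3 lists, 26452 in 2 and 84464 in 1, and 1276 (1.09%) were in 4 or more. The difference between the 9 loci and all regions was not tested.

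Most sites were distal. Of the 315 peaks, 255 were intronic (81%) and 55 lay outside the gene that named the locus. The centre was within 2 kb of a curated coding TSS for 39 peaks (12.4%, interval 8.95 to 16.5%), against 18.5% of all deposited peaks. Within the long lists the share of the whole list lay inside the interval at these loci, with 18.3% for HP PU.1 (2.45 to 30.2%), 16.4% for MAC C/EBPβ (6.45 to 19.4%) and 18.0% for MAC PU.1 (7.61 to 18.2%). Near the gene's own TSS there were 6 peaks at Elf1, 4 each at Elk3 and Elk4, 3 each at Fli1, Ets1 and Etv6, 2 at Erg and 1 each at Ets2 and Elk1.

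Of the HP PU.1 peaks at these loci, 8 of 26 held the PU.1 word (30.8%, interval 14.3 to 51.8%), against 42.1% of the whole list and 2.93% of flanks. Of these 8, 5 were at Fli1, 2 at Etv6 and 1 at Erg. Of the MAC PU.1 peaks, 36 of 164 held it (22%, interval 15.9 to 29.1%), against 24.4% of the list and 2.81% of flanks. Of the MAC C/EBPβ peaks, 11 of 110 held a C/EBP word (interval 5.1 to 17.2%), against 14.9% of the list and 2.38% of flanks. The PU.1 word was in 9 of the 26 MAC PU.1 peaks that overlapped an HP peak and in 27 of the 138 that did not, with intervals of 17.2 to 55.7% and 13.3 to 27.2%, which overlap. The CArG box was in 3 of the 110 MAC C/EBPβ peaks (2.73%, against 2.04% of the list), in 3 of the 164 MAC PU.1 peaks (1.83%, against 2.13% of the list) and in 1 of the 4 HP GFI1B peaks (1.49% of the list).

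Counted per 100 kb of window, MAC PU.1 peaks were more frequent at each of the 9 loci than the coding median of 5.24, from 8.74 at Elk1 to 17.4 at Fli1. All but Elk1 and Erg lay above the upper quartile of 10.0. MAC C/EBPβ ran from 3.41 at Ets2 to 13.1 at Etv6, above the coding median of 3.16 at each of the 9 loci, with Ets2, Erg and Elk4 within the quartiles. Elk1, whose window held sites of Cfp, had an HP PU.1 density of 3.5 per 100 kb, while Ets2, Elk3 and Elk4 had none. These densities come from 1 list each, and no neighbours in their order can be called different.

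**Figure D4:**
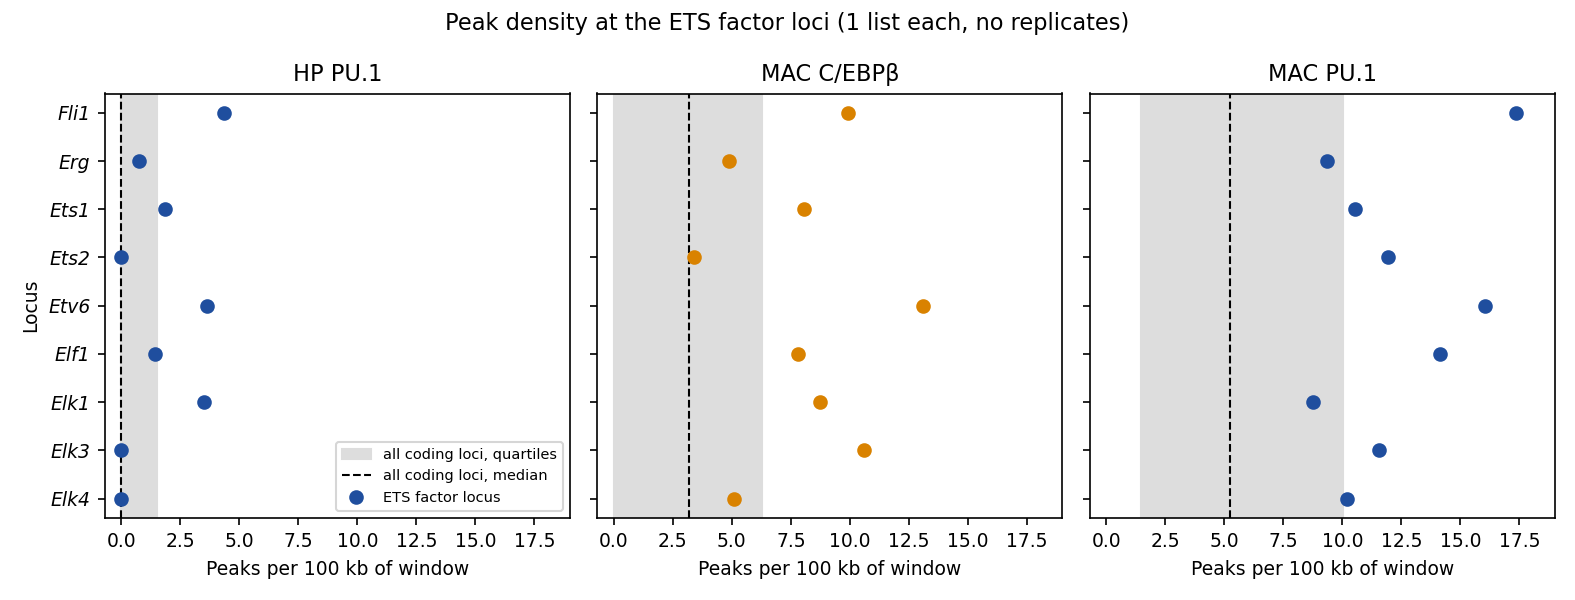
Peaks per 100 kb of window (x-axis) at each ETS factor locus (points, y-axis) for HP PU.1, MAC C/EBPβ and MAC PU.1, with the median (dashed line) and the quartiles (grey band) over all protein-coding loci. Fli1 has the highest density in both PU.1 panels and Etv6 in the C/EBPβ panel, and Ets2, Elk3 and Elk4 are at 0 for HP PU.1.

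The remaining 17 ETS family genes were counted in the same windows. HP PU.1 bound 9 of the 17 against 38.2% of all coding loci, HP C/EBPβ 4 against 14.8%, HP GFI1B 3 against 11.8%, MAC C/EBPβ 15 against 73.8% and MAC PU.1 17 against 79.1%. Before HP, MES C/EBPβ bound 1 of the 17, Elf2, against 6.47%, and HB GATA2 bound 1, Elf4, against 0.363%. HB C/EBPβ and HE C/EBPβ each bound 1 of the 17, Elf2, against 4.24% and 0.684%. MES ELK4, HP GATA1 and HP GATA2 bound 0 of the 17, against 4.66%, 1.75% and 3.36%. HP RUNX1 bound 3 of the 17 and 0 of the 9, against 7.79%, and the difference was not tested. Elf2 held 9 lists and Spi1 6, and Elf4, Elf5, Erf and Etv3 held 4 each. Of the RUNX genes and Cbfb, HP PU.1 bound 4 of 4 and HP C/EBPβ 2 of 4, against the same 38.2% and 14.8%. MES C/EBPβ bound 1 of these 4, against 6.47%. Of the GATA genes and Zfpm1, HP PU.1 bound 3 of 7 (38.2% of all coding loci), HP GFI1B 4 of 7 (11.8%) and HP C/EBPβ 0 of 7 (14.8%).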

How the data were processed

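The deposited files give the start and end of each peak on mm10 (GRCm38) and no score, height, read count or p-value, and sequencing depth was not used here. Per the study's methods, the authors trimmed reads with CutAdapt, aligned them with Bowtie, kept uniquely placed reads, removed duplicates with Picard, called peaks with MACS against input of the same stage at a threshold chosen by eye for each list, refined them with polyPeak and set them to 400 bp around the summit. Technical runs were combined for some lists, and carrier mRNA and histone were added for HE. Versions are not given in the sources used here. These steps make list lengths no measure of the amount of binding.

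Here peaks were assigned to RefSeq GRCm38 gene spans with 20 kb on each side, merged where they overlapped by at least 1 bp, and searched for motif words in the genome sequence. Counts of loci with a peak are set beside the same share over all 21774 protein-coding loci. The 95% intervals of shares are exact (Clopper-Pearson) and cover no error other than that of counting. The 1 HP PU.1 peak on the mitochondrial chromosome was not used for positions. Python 3.11.15, NumPy 2.4.6, SciPy 1.17.1 and Matplotlib 3.10.9 were used, and the counting steps were tested on simulated peaks. All 9 genes were named, with the peaks of lists under 3000 peaks, coding genes within or nearest to the windows, the other ETS genes holding the most lists and the genes most like Elf1 in their lists. The genes and gene lists were chosen with earlier results of these data known, and the HP PU.1 peaks, the tRNA counts and the printed sequences were picked after the values were seen. Some sequences are not reported here.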

Additional observations from a re-analysis of the deposited data

How the results depend on the processing

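With 1 list per group and no score per peak, no replicate could be left out and no stricter threshold applied, so neither alternative was run. No paired analysis was possible because each group held 1 list. Of 189 values recomputed under other settings, 166 stayed within the limits set for a change (a count within 1.5 times the main count, a share within its interval) and 23 moved. The 315 peaks became 90 with 20 kb on each side of the 5′ end and 171 with regions in at least 2 lists only. The number of the 9 loci with a MES C/EBPβ peak went from 1 to 2 with 50 kb added on each side, and to 0 with windows about the 5′ end, as did that of HB GATA2. HP GATA1 went from 1 to 0 when peaks were given to the nearest coding TSS, and to 0 with regions in at least 2 lists. HP GATA2 went from 2 to 1 with the gene span alone and with 10 kb, and to 0 with regions in at least 2 lists. HP GFI1B went from 3 to 1 with windows about the 5′ end and to 1 with regions in at least 2 lists. With the nearest coding TSS, HP RUNX1 reached 1 locus, Ets2, and regions in at least 4 lists went from 0 to 1. That region, chr16:95827234-95827815, lies outside the Ets2 window. The share of MAC C/EBPβ peaks on a MAC PU.1 peak was 42.73% with an overlap of at least 200 bp and 42.73% with the central 200 bp of each peak, against 35.6% of the whole list at 200 bp. The share of peaks near a coding TSS was 8.889% within 1 kb, 17.46% within 5 kb, 18.1% with the starts of all transcripts and 32.22% with windows about the 5′ end. The share over all deposited peaks was not computed at these settings, so these values have no background. Windows about the 5′ end are centred on a start, which raises this share by design. With the shorter cores GGAAGT and TTGCNNAA, 80.77% of HP PU.1, 70.12% of MAC PU.1 and 30.0% of MAC C/EBPβ peaks matched, against 81.97%, 67.63% and 41.89% of the whole lists.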
